A study of Mus musculus with 5 samples.

Results

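The 4 diabetic libraries described here, 2 from untreated and 2 from curcumin-treated animals, are 4 of the 5 RNA-seq libraries of a study of visceral fat. They were chosen by label, and the fifth, control 1, serves as a reference value beside them. All libraries came from male C57BL/6 mice. Both diabetic groups received streptozotocin, a toxin of the insulin-producing beta cells, once at 2 days of age and 70 mg/kg by intraperitoneal injection. A high-fat diet (60% of energy) followed for 8 weeks from 3 weeks of age. The untreated diabetic group (diabetes 1 and 2) then received vehicle. The treated group (curcumin-treated 1 and 2) received curcumin by gavage at 50 mg/kg each day for 28 days from 11 weeks of age. Control 1 had standard chow and vehicle. The model is a chemical lesion of beta cells joined to a diet, no group on the diet alone is analysed here, and whether replicate libraries represent different animals or pools is not stated in the labels. The p-values below therefore measure only the spread between these libraries, which may be technical.

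Curcumin is the yellow polyphenol of turmeric, and it has been studied widely for effects on oxidative and inflammatory signalling and on adipocyte metabolism. Visceral fat stores and releases lipid under the control of insulin and catecholamines. It also burns branched-chain amino acids, secretes hormones and components of the renin-angiotensin system, and holds macrophages, vessels and nerves beside its adipocytes. In male mice the gonadal fat pad lies against the epididymis, the duct in which sperm mature.

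The tissue content differed within each group, so the value of every library is given below. Total counts were 25451001 and 25378046 in diabetes 1 and 2, 27814957 and 42422890 in curcumin-treated 1 and 2, and 27026597 in control 1. Levels are CPM, counts scaled so that a library totals 1000000, which are not corrected for gene length, and a count of 0 allows up to 0.118, 0.118, 0.108 and 0.0707 CPM in the 4 diabetic libraries in that order. The 30 epididymal epithelium markers summed to 84741 CPM in diabetes 1 and 0.355 CPM in diabetes 2, where 27 of them were at 0, and to 6769 and 129680 CPM in curcumin-treated 1 and 2. The 23 adipocyte markers summed to 681, 58874, 6625 and 562 CPM in the same order. Adipoq, the adipocyte hormone adiponectin, was close to absent from 2 libraries labelled as fat, diabetes 1 (1.34 CPM) and curcumin-treated 2 (1.41 CPM). Neither list separated the groups. The 14 smooth muscle and pericyte markers summed to 1670, 1431, 51239 and 2425 CPM. In control 1 the epididymal, adipocyte and smooth muscle lists summed to 89087, 1182 and 2928 CPM. Its values beside the genes below are therefore not those of a library rich in adipocyte transcripts. In bulk tissue, fewer cells of a type and less RNA per cell cannot be told apart.

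**Figure D1:**
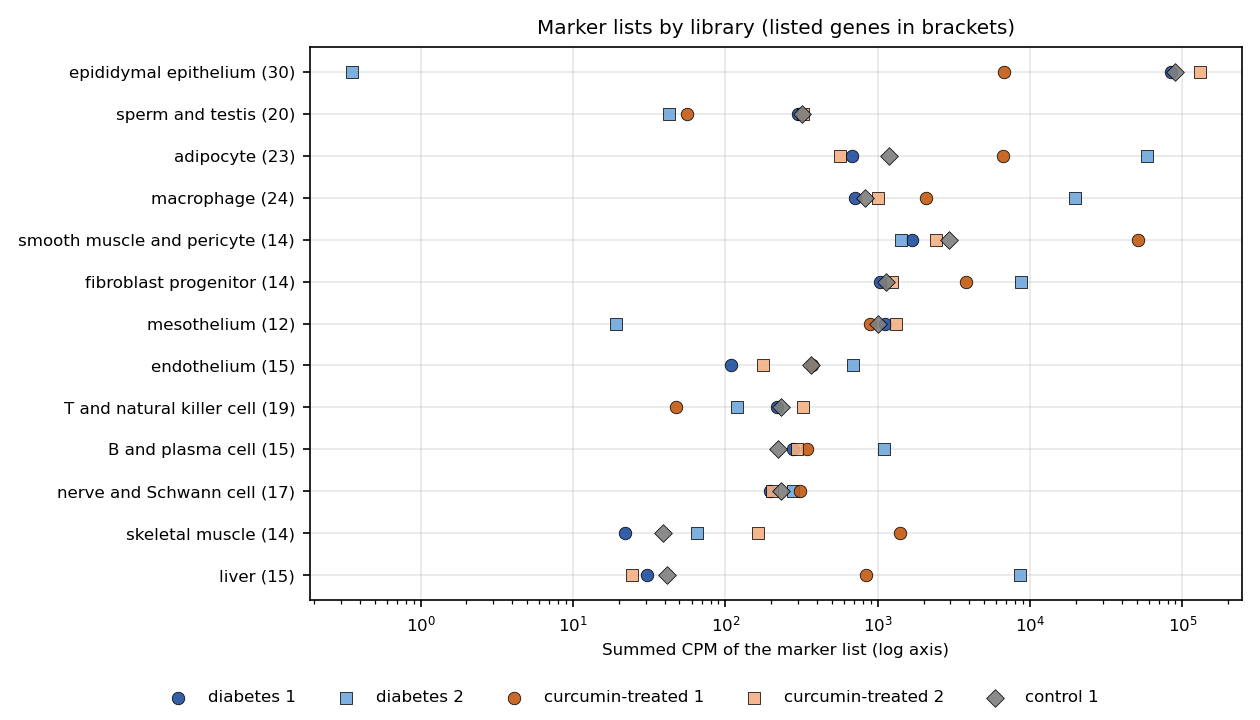
Summed CPM of each marker list (log axis) in the 2 diabetic, 2 curcumin-treated and 1 control libraries, with the number of listed genes in brackets. Epididymal markers ran from 0.355 CPM in diabetes 2 to 129680 CPM in curcumin-treated 2, and smooth muscle markers reached 51239 CPM in curcumin-treated 1.

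The comparison asked how curcumin treatment relates to gene expression in the fat of diabetic mice. No gene of 29855 tested passed an adjusted p of 0.05 in edgeR's quasi-likelihood test (0%), and the smallest adjusted p was 0.852. At an unadjusted p under 0.05 there were 696 genes (2.33%). DESeq2 called 97 genes, of which 62 had 0 counts in both diabetic libraries and 64 had their highest value in curcumin-treated 1, and limma-voom called 0. Of the genes named below, the DESeq2 calls were Foxo6 (adjusted p = 0.00190), Hoxa10 (0.00209), Des (0.00585), Adra2a (0.00777), Sox10 (0.0131), Ighg2c (0.0136), Gm15564 (0.0247) and Lmod1 (0.0432), and edgeR gave each of them an adjusted p of 0.852. With 2 libraries against 2 the exact permutation test cannot go below a two-sided p of 0.333, so the genes below are described by the order of their libraries and not as changed. Both curcumin-treated libraries lay above both diabetic libraries for 5334 genes (17.9%) and below both for 2901 (9.72%). These are called separated genes. Among the 15927 genes with a mean of at least 2 CPM the shares were 15.1% above and 12.1% below. If group labels carried no information, a share of 0.333 of genes without ties would be separated on average, counting either direction. The share found was 27.6%, or 27.2% among genes with a mean of at least 2 CPM. A gap of at least 2-fold between the nearest libraries, after adding 0.5 CPM, was left by 410 genes above (1.37%) and 117 below (0.392%).

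Separated genes differed by the makeup of their transcripts. Among genes with at least 2 CPM, the median transcript GC content was 53.7% for those higher with curcumin, 45.8% for those lower and 49.8% for those that overlapped. Median transcript lengths were 2398, 4033 and 3111 bases. With the genes ordered by GC into 10 bins of equal size, 6.19% of the bin with the least GC were separated higher and 22.9% lower, and 32.7% and 2.74% of the bin with the most. In the bin of the shortest transcripts 19.9% were separated higher and 7.35% lower, and in that of the longest 6.85% and 23.1%. A smooth correction of each library for both properties left 9.47% separated higher and 15.9% lower at that level of expression. It also replaced the library total by TMM scaling (trimmed mean of M values) and covered the 15337 of these genes with known GC content. TMM scaling alone gave 2500 genes higher and 1934 lower at that level, against 2403 and 1925 by library total. Counts after this correction are given beside those before it, and its part in the results was not tested further. Unless another is given, the background for the lists below is 15.1% higher and 12.1% lower before the correction. After it the background is 9.47% and 15.9%.

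**Figure D2:**
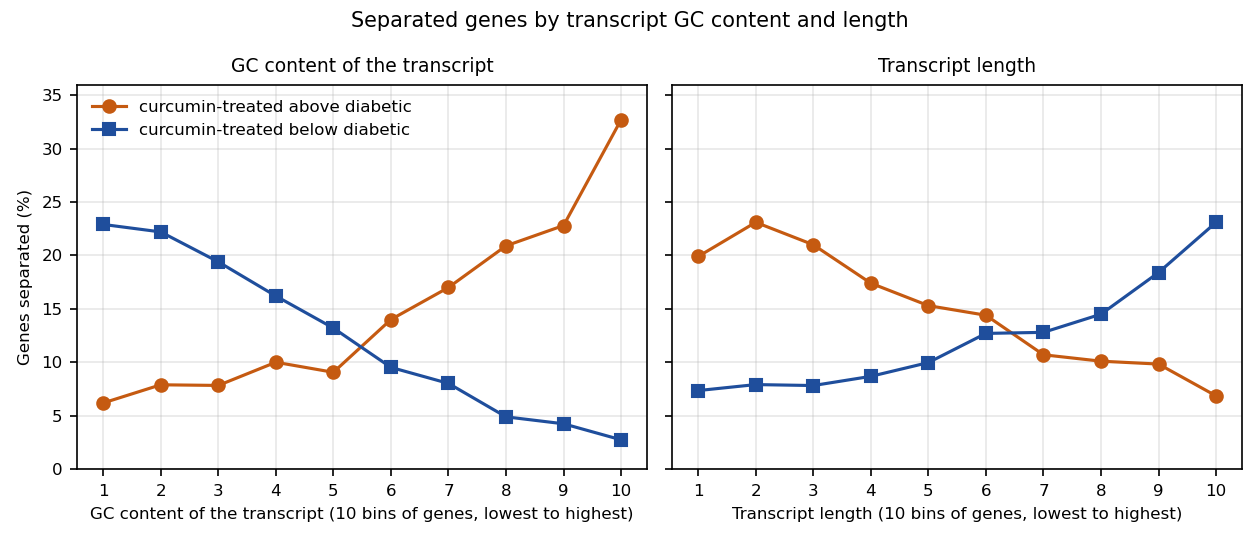
Share of genes with a mean of at least 2 CPM that were separated higher (orange) or lower (blue) with curcumin, in 10 bins of genes ordered by transcript GC content and by transcript length. The higher share climbs from 6.19% to 32.7% with GC content, and the lower share from 7.35% to 23.1% with length.

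Agt (ENSMUSG00000031980) had the smallest p of the named genes lower with curcumin. It encodes angiotensinogen, the precursor of the vasoactive angiotensin peptides, which fat secretes as well as liver. Agt stood at 82.9 and 80.8 CPM in the diabetic libraries and at 7.87 and 10.3 CPM in the curcumin-treated ones, with 50.9 CPM in control 1. The diabetic libraries nearly coincided although their adipocyte markers differed widely, and so did the treated ones. The means were 81.8 ± 1.45 and 9.09 ± 1.72 CPM (SD, n = 2 each), 9.01-fold apart (log2 fold change −3.16, SE 0.50, edgeR adjusted p = 0.852). Of the other genes of the renin-angiotensin system, Mme, the neprilysin that degrades angiotensin peptides, was also lower in both treated libraries, at 46.2 and 117 CPM against 24.9 and 32.9 CPM. Ace, the converting enzyme, overlapped, at 1254 and 80.1 CPM against 37.7 and 399.6 CPM. In all, 2 of 19 tested members were separated lower and 2 higher, and 1 and 3 after the correction.

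Piezo1 (ENSMUSG00000014444), an ion channel opened by membrane stretch, stood at 77.6 and 139 CPM in diabetes and at 17.7 and 9.12 CPM with curcumin (log2 fold change −3.09, SE 0.62). Control 1 held 68.9 CPM, so both treated libraries lay below all the other libraries. The rest of the mechanosensing list was mixed. Tead3, a DNA-binding partner of the YAP coactivators, was higher, at 16.1 and 5.91 CPM against 118 and 22.1 CPM, and so was Yap1 itself, at 82.3 and 78.1 CPM against 149.8 and 101 CPM. Lats1, the kinase that restrains YAP, was lower, at 59.6 and 46.8 CPM against 30.1 and 40.0 CPM. Of 24 members, 4 were separated higher and 2 lower, and 3 and 2 after the correction.

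Several membrane and signalling genes lay far below their diabetic levels in both treated libraries. Ptpro, a receptor-type tyrosine phosphatase, stood at 25.5 and 24.4 CPM against 4.82 and 6.79 CPM. Mertk, the macrophage receptor for dying cells, stood at 46.4 and 62.7 CPM against 11.8 and 18.6 CPM. Notch1, a receptor that sets cell fate on contact, stood at 64.0 and 32.7 CPM against 16.9 and 11.1 CPM. All treated values lay well below the lower diabetic one, with fitted log2 fold changes of −2.09 (SE 0.56), −1.84 (SE 0.55) and −1.78 (SE 0.51). Car4, a membrane-bound carbonic anhydrase, stood at 53.5 and 40.2 CPM against 11.2 and 1.44 CPM. Jpt2 differed little within either group, at 91.1 and 93.8 CPM against 35.2 and 33.6 CPM, a 2.69-fold difference between means (log2 fold change −1.44, SE 0.43). Cmip, an adaptor protein, stood at 28.4 and 40.5 CPM against 10.1 and 6.53 CPM. Mertk was 1 of only 2 of the 24 macrophage markers to be separated, the other being Spp1 (osteopontin) at 4.99 and 32.2 CPM against 1.40 and 2.07 CPM. The macrophage list as a whole overlapped, with sums of 712 and 19682 CPM against 2090 and 1010 CPM, and 3 members were lower after the correction.

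The other Notch pathway genes were listed after Notch1 had been seen. Of 21 tested, 3 were separated lower and 4 higher, and 4 and 2 after the correction. The ligand genes Jag2 (25.7 and 11.2 CPM against 50.8 and 45.5 CPM) and Dll1 (4.95 and 3.43 CPM against 9.78 and 8.37 CPM) lay on the opposite side from their receptor. Heyl, a target of Notch signalling found in smooth muscle, stood at 10.1 and 4.81 CPM against 75.1 and 12.1 CPM, high in curcumin-treated 1, the library with the most smooth muscle transcripts. Hes1, another target, overlapped.

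**Figure D3:**
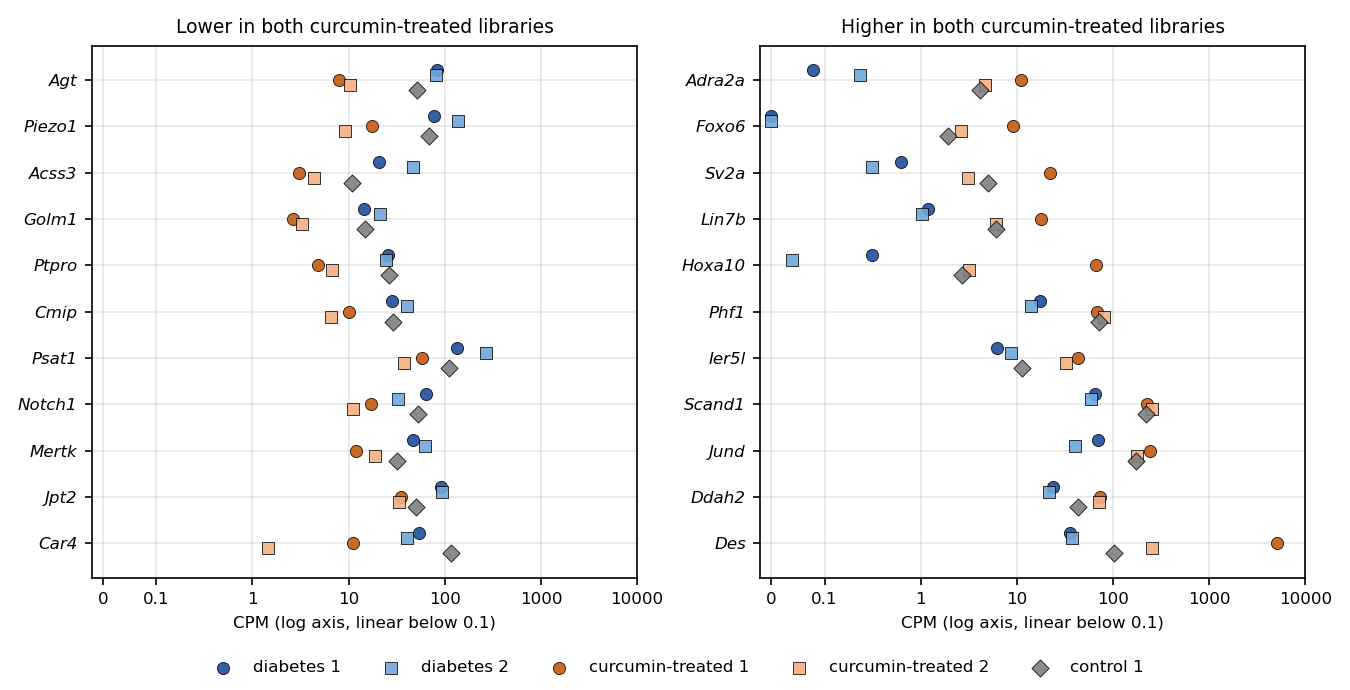
CPM per library (log axis, linear below 0.1) for 11 genes lower and 11 genes higher in both curcumin-treated libraries. For Agt the treated libraries lie at 7.87 and 10.3 CPM against 82.9 and 80.8 CPM in diabetes, and for Des the treated libraries differ from each other, at 5046 and 257 CPM.

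Adra2a (ENSMUSG00000033717) had the smallest p among the named genes higher with curcumin. It encodes the alpha-2A adrenergic receptor, which lowers cyclic AMP and holds back lipolysis in fat cells. The gene had 2 and 6 counts in the diabetic libraries, or 0.0786 and 0.236 CPM, and stood at 11.1 and 4.71 CPM with curcumin and 4.11 CPM in control 1 (log2 fold change 5.54, SE 1.20, edgeR adjusted p = 0.852). Both diabetic values lay near the limit of detection. Among the 9 adrenergic receptor genes, a list made after this value was seen, it was the only one separated, before and after the correction. Adrb3, the beta-3 receptor that drives lipolysis, stood at 0 and 182 CPM in diabetes against 38.1 and 0.259 CPM, and like the adipocyte markers it was highest in diabetes 2 and next in curcumin-treated 1.

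Phf1 (ENSMUSG00000024193), a reader of methylated histone H3 that joins Polycomb repressive complex PRC2, stood at 17.4 and 14.1 CPM in diabetes against 68.5 and 80.9 CPM with curcumin. Its means were 15.8 ± 2.36 and 74.7 ± 8.75 CPM (SD, n = 2 each), 4.74-fold apart (log2 fold change 2.26, SE 0.46), and control 1 was at 72.3 CPM. Scand1, a SCAN-domain protein, stood at 64.5 and 59.2 CPM against 227 and 255 CPM, with 222 CPM in control 1. For both genes the diabetic libraries were the ones that stood apart from the other 3. The transcripts are rich in GC, at 58.6% for Phf1 and 68.4% for Scand1, and after the correction for GC and length the log2 fold changes were 1.71 and 0.34. Ddah2, which breaks down the inhibitor of nitric oxide synthase, stood at 23.6 and 21.8 CPM against 72.4 and 71.3 CPM, with little spread in either group (log2 fold change 1.66, SE 0.43, and 0.83 after correction).

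Foxo6, a forkhead transcription factor of the insulin-regulated FOXO family, had 0 counts in both diabetic libraries and stood at 9.20 and 2.64 CPM with curcumin and 1.92 CPM in control 1. Nrg1, the neuregulin ligand of ERBB receptors, stood at 0.314 and 0.0394 CPM against 6.87 and 4.43 CPM, and Doc2g at 0.511 and 0.946 CPM against 7.59 and 6.95 CPM. These genes were low in every library. Others were far higher in curcumin-treated 1 than in curcumin-treated 2. Hoxa10, a homeobox gene of the posterior body axis, stood at 0.314 and 0.0394 CPM against 66.0 and 3.18 CPM, and Msx1, another homeobox gene, at 0 and 1.14 CPM against 39.1 and 8.84 CPM. Tcf23 stood at 1.02 and 0.985 CPM against 28.3 and 5.09 CPM.

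Fuel metabolism lists differed in their share of lower genes. Of the 26 genes of branched-chain amino acid and propionate breakdown, 9 were separated lower (34.6%) and 1 higher, with a median log2 fold change of −0.99 against 0.05 for all tested genes. After the GC and length correction 12 were lower, the same 9 among them. Acss3, a mitochondrial propionyl-CoA synthetase, stood at 20.7 and 46.9 CPM against 3.06 and 4.41 CPM (log2 fold change −3.20, SE 0.73). Aldh6a1, which handles methylmalonate semialdehyde from valine, stood at 305 and 305 CPM against 84.9 and 141 CPM. Abat, the mitochondrial transaminase that degrades GABA, stood at 31.3 and 54.5 CPM against 20.9 and 9.78 CPM. Dbt, the acyltransferase core of the branched-chain ketoacid dehydrogenase, stood at 26.9 and 68.4 CPM against 19.8 and 14.4 CPM. Bckdk, the kinase that switches this dehydrogenase off, was the member on the other side, at 57.4 and 66.9 CPM against 122 and 110.3 CPM. Diabetes 2, the library richest in adipocyte markers, held the highest value of Acss3, Abat and Dbt, while Aldh6a1 was level between the diabetic libraries.

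No member of the fatty acid and triglyceride synthesis list was separated higher, and 6 of 29 (20.7%) were lower, with a median log2 fold change of −1.33. After the correction 8 were lower, 5 of them the same genes. Fasn, the fatty acid synthase, stood at 336 and 1904 CPM against 242 and 178 CPM. Lpin1, a phosphatidate phosphatase, stood at 49.3 and 493 CPM against 35.8 and 28.8 CPM. Gpam, which starts triglyceride synthesis at the mitochondrial membrane, stood at 80.9 and 183 CPM against 72.9 and 46.4 CPM. In each the distance between the groups was carried by diabetes 2, and without that library the fitted log2 fold change was −0.60 for Fasn, −0.53 for Lpin1 and −0.37 for Gpam. Fatty acid oxidation genes were lower in 4 of 27 (14.8%) and higher in 0, near the background of lower genes, and 3 were lower after the correction. Glycolysis and glucose uptake genes were lower in 5 of 30 (16.7%) and higher in 3, and in 6 and 1 after it. The background for these was 12.1% lower and 15.1% higher, and 15.9% and 9.47% after the correction, so the list lay near it. Cpt1a, the gate of mitochondrial fatty acid import, differed from the rest in being level within diabetes, at 179.8 and 168 CPM against 98.1 and 70.1 CPM (log2 fold change −1.07, SE 0.46). Of 25 lipolysis and lipid droplet genes 3 were separated lower (12.0%), at the background rate and the same 3 after the correction, among them Plin5, a droplet coat protein, at 9.43 and 11.6 CPM against 1.37 and 4.6 CPM. Lipe, the hormone-sensitive lipase, overlapped at 11.0 and 1159 CPM against 278 and 22.8 CPM.

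**Figure D4:**
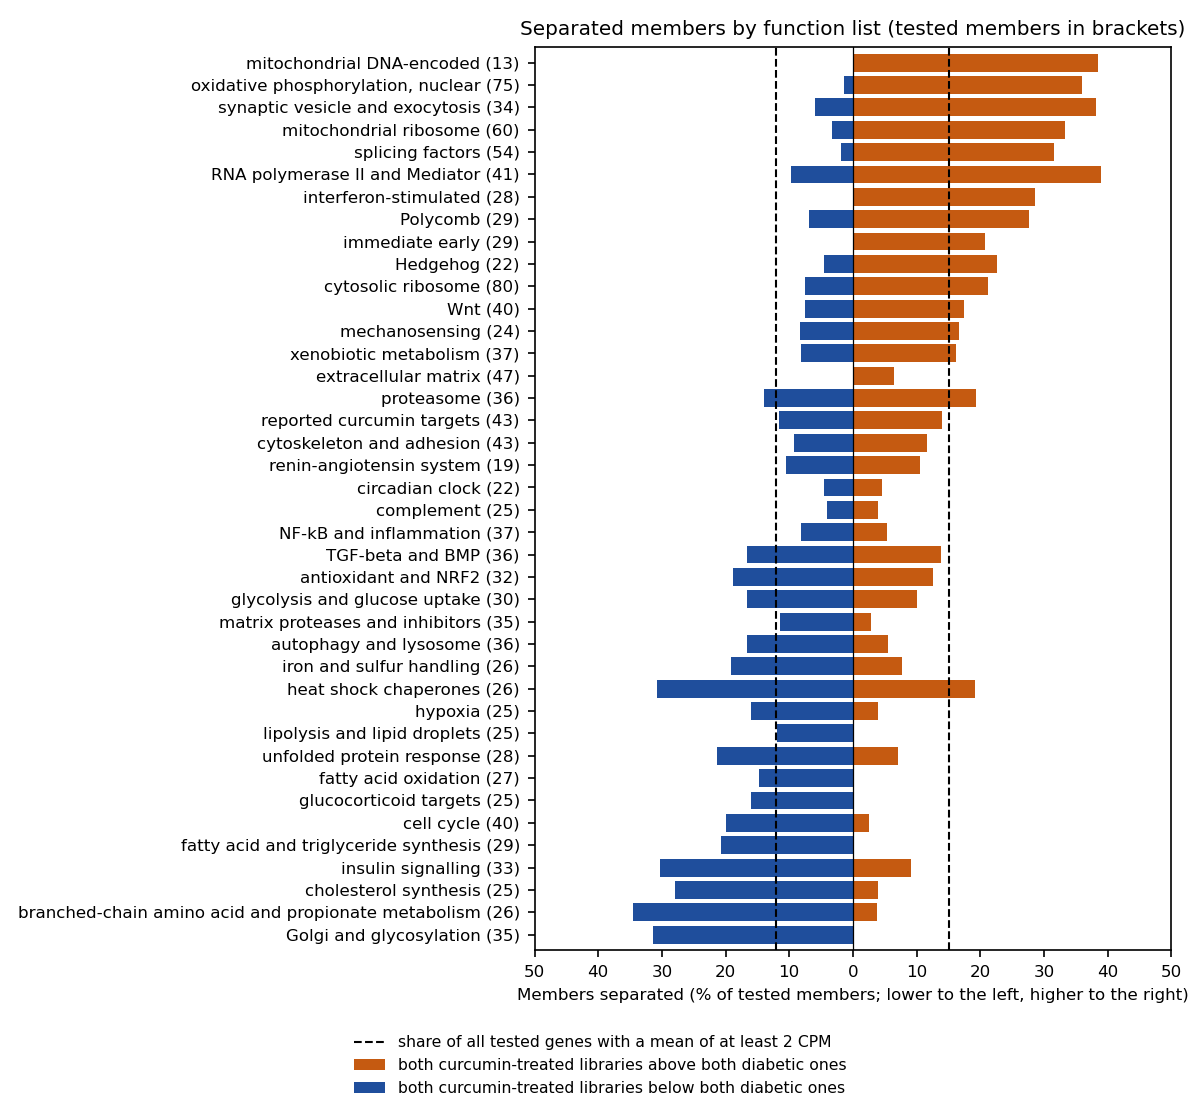
Share of tested members of each function list, with their number in brackets, that were separated lower (blue, to the left) or higher (orange, to the right) with curcumin. Dashed lines mark the shares over all tested genes with a mean of at least 2 CPM, 12.1% lower and 15.1% higher.

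Cholesterol synthesis and uptake genes, which SREBP factors and INSIG proteins regulate together, were separated lower in 7 of 25 (28.0%) and higher in 1, and after the GC and length correction 7 were lower, 5 of them the same genes, and 0 higher. Insig1, which retains SREBP in the endoplasmic reticulum, stood at 113 and 262 CPM against 38.6 and 62.9 CPM (log2 fold change −1.91, SE 0.70). Sc5d, a late desaturase of the pathway, stood at 58.8 and 231 CPM against 46.6 and 30.0 CPM. Hmgcs1, which makes HMG-CoA, stood at 117 and 270.4 CPM against 72.1 and 91.6 CPM. The highest value of each was in diabetes 2, and without that library the log2 fold change was −1.03 for Insig1, −0.55 for Sc5d (from −2.01) and −0.41 for Hmgcs1 (from −1.28). Sqle and Srebf2 overlapped. Mvd, the decarboxylase, was the member separated higher, at 18.3 and 19 CPM against 20.2 and 31.7 CPM, and its fitted log2 fold change went from 0.49 to −0.19 under the correction. Under the scaling by TMM, the trimmed mean of M values, 5 members were lower and 2 higher, and Mvd was not among the 2.

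The promoter of Hmgcs1 is shown because, of the separated members, it is the one whose start-site window holds the sterol response element TCACNCCAC, the site through which SREBP acts. RefSeq windows of 250 bases before to 50 bases after the start were searched on both strands. Of 32851 windows 1.24% held the letters. Among cholesterol genes they were in 1 of the 6 lower genes with a window and in 0 of the 10 overlapping ones. The window below is from GRCm38.p6, chr13:119690101-119690400, plus strand, 5′ to 3′, with the element in capitals, 137 bases before the start.
Hmgcs1: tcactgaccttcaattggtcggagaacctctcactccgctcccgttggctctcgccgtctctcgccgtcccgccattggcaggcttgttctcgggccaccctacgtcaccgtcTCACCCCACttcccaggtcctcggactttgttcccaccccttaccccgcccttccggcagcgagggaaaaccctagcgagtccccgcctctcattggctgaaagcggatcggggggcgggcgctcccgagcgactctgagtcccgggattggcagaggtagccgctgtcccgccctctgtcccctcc

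Genes of serine synthesis and of the amino acid response were listed after Psat1 had been seen among the leading genes. Psat1, which makes phosphoserine on the way to serine, stood at 133 and 267 CPM against 58.0 and 37.9 CPM (log2 fold change −2.12, SE 0.61), and control 1 was at 110.4 CPM. Asns, asparagine synthetase, stood at 31.8 and 33.1 CPM against 18.1 and 14.9 CPM. Chac1, which degrades glutathione, stood at 6.80 and 8.47 CPM against 2.73 and 3.09 CPM. In both of the last, the libraries of each group lay close together. Atf4, the transcription factor that drives these genes when amino acids are short, lay on the other side, at 139 and 109 CPM against 201 and 287 CPM. After the GC and length correction Atf4 overlapped, and its log2 fold change went from 1.00 to 0.55. Sesn2, another of its targets, stood at 30.1 and 40.2 CPM against 19.7 and 22.9 CPM, and Ddit4 at 44.6 and 60.1 CPM against 14.3 and 34.3 CPM. Phgdh, the enzyme before Psat1, overlapped at 98.0 and 178 CPM against 62.0 and 153 CPM. Of 35 members 8 were separated lower (22.9%) and 2 higher, and after the GC and length correction 9 and 1. Cbs, the enzyme that joins serine to homocysteine, was named under the sulfur handling list and stood at 12.0 and 7.17 CPM against 3.06 and 1.74 CPM.

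ATF4 binds the amino acid response element TGATGNAA, and in human ASNS these letters form part of the known nutrient-sensing element. The windows of Asns and Chac1 are shown because both genes were lower and both hold it. The element was in 3.97% of all windows on either strand, in 3 of the 7 lower genes with a window (Vldlr is the other), in 1 of 2 higher and in 6 of 21 overlapping. The windows below are from GRCm38.p6, 5′ to 3′ on the gene's strand, with the element in capitals. Asns lies at chr6:7693160-7693459, minus strand, with the element 23 bases before the start, and Chac1 at chr2:119350992-119351291, plus strand, where the element reads on the opposite strand and begins 193 bases before the start.
Asns: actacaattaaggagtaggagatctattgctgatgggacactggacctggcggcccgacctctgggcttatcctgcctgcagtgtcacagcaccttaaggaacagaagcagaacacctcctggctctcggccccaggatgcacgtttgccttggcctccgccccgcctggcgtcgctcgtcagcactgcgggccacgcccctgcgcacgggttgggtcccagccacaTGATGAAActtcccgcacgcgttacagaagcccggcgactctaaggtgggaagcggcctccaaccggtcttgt
Chac1: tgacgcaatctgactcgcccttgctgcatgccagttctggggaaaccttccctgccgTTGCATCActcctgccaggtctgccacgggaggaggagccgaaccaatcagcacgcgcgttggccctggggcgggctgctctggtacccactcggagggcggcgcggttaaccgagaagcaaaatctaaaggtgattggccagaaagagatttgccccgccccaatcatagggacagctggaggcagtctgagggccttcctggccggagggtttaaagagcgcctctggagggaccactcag

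Insulin signalling genes were separated lower in 10 of 33 (30.3%) and higher in 3. Tbc1d4, the substrate of AKT that holds glucose transporters inside the cell, stood at 28.5 and 59.1 CPM against 15.6 and 15.3 CPM (log2 fold change −1.55, SE 0.59). Pik3cb, a catalytic subunit of phosphoinositide 3-kinase, stood at 21.7 and 41.5 CPM against 11.9 and 11.4 CPM, and Insr, the receptor, at 64.6 and 98.5 CPM against 54.6 and 49.4 CPM. The treated libraries of these genes nearly coincided, and the diabetic ones spread upward from them. Mtor, the kinase downstream, stood at 78.5 and 79.2 CPM against 50.4 and 60.4 CPM. The members separated higher were Akt1, Pik3r2 and Gsk3a. Akt1 stood at 93.4 and 98.5 CPM against 173 and 105 CPM. The log2 fold changes of the trio were 0.50, 0.58 and 0.67, and −0.24, −0.24 and −0.07 after the GC and length correction. Under it 7 members were lower, 5 of them among the original 10. The others were Akt1 and Pik3r2, whose treated libraries both lay below both diabetic ones after the correction. Outside the trio, 1 member was higher under it.

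Golgi and glycosylation genes had no member separated higher and 11 of 35 lower (31.4%), and 11 were lower after the correction, 8 of them the same genes, and 1 higher. Golm1 (ENSMUSG00000021556), a membrane protein of the cis-Golgi, stood at 14.5 and 21 CPM against 2.66 and 3.28 CPM (log2 fold change −2.59, SE 0.66). Sec24d, a cargo-binding part of the COPII coat, stood at 82.8 and 104 CPM against 38.2 and 45.2 CPM, and Tgoln1, of the trans-Golgi network, at 164 and 353 CPM against 100.1 and 105 CPM. Golga3, a golgin tether, stood at 69.3 and 81.7 CPM against 48.9 and 38.1 CPM. For Golm1, Sec24d and Golga3 both diabetic libraries were high, which was not so for Fasn and Lpin1. Autophagy and lysosome genes were lower in 6 of 36 and higher in 2, and 12 were lower and 1 higher after the correction. Lamp2, a lysosomal membrane protein, stood at 438 and 377 CPM against 243 and 262 CPM, and Ctsl, the protease cathepsin L, at 386 and 1152 CPM against 249 and 239.7 CPM.

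Stress chaperones were separated lower in 8 of 26 (30.8%) and higher in 5, but in 7 and 1 after the correction. Hspd1, the mitochondrial chaperonin HSP60, stood at 135 and 181 CPM against 89.2 and 90.7 CPM, and Hspa8, the constitutive HSC70, at 425 and 514 CPM against 295 and 220.1 CPM. Bag3, a co-chaperone of muscle, was higher, at 71.7 and 48.1 CPM against 413 and 78.1 CPM, most of all in curcumin-treated 1, and it overlapped after the correction. Cell cycle genes were lower in 8 of 40 (20.0%) and higher in 1, and 9 were lower and 0 higher after the correction. Rb1, the retinoblastoma gene, stood at 33.4 and 74.5 CPM against 21.4 and 20.0 CPM, and Ccne1, cyclin E1, at 4.87 and 10.4 CPM against 3.06 and 3.11 CPM.

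Mitochondrial and gene-expression machinery was often on the higher side before the correction. Of 75 nuclear oxidative phosphorylation genes 27 were separated higher (36%) and 1 lower, with a median log2 fold change of 0.32. The 4 with the smallest p were short subunits. Ndufa5 of complex I stood at 56.0 and 34.8 CPM against 103 and 94.3 CPM, Ndufa2 at 66.1 and 119 CPM against 198 and 324 CPM, and Ndufa1 at 69.2 and 58.6 CPM against 105 and 187 CPM. Atp5e, a subunit of ATP synthase, stood at 88.2 and 135 CPM against 239 and 251 CPM. Sdha, of complex II, was the member separated lower, at 258 and 369 CPM against 256 and 154 CPM. Mitochondrial ribosome genes were higher in 20 of 60 (33.3%) and lower in 2. Mrpl36 stood at 28.1 and 23.6 CPM against 44.6 and 50.9 CPM, and Mrpl11 at 34.3 and 43.8 CPM against 69.5 and 68.6 CPM. After the GC and length correction 16 of the oxidative phosphorylation genes were higher and 5 lower. Of the mitochondrial ribosome genes 11 were higher, 4 of them the same genes, and 12 lower. Among all genes with at least 2 CPM, 15.1% were higher and 12.1% lower before the correction, and 9.47% and 15.9% after it. The corrected median log2 fold change was 0.08 for the mitochondrial ribosome list and −0.16 for all genes at that level.

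Splicing factor genes were higher in 17 of 54 (31.5%) and lower in 1, and in 11 and 4 after the correction. The background for this and the next lists was 15.1% higher and 12.1% lower, and 9.47% and 15.9% after the correction. Sf3a2, of the U2 snRNP, stood at 25.7 and 20.4 CPM against 77.2 and 42.1 CPM, and Snrpd2, a core Sm protein, at 18.3 and 37.9 CPM against 92.8 and 72.0 CPM. RNA polymerase II and Mediator genes were higher in 16 of 41 (39.0%) and lower in 4, but in 4 and 5 after the correction. Polr2f, a small subunit shared by the polymerases, stood at 24.4 and 44.7 CPM against 79.0 and 88.0 CPM. Med13, a large Mediator kinase-module subunit, lay on the other side, at 88.8 and 51.9 CPM against 37.4 and 42 CPM. Cytosolic ribosome genes went from 17 of 80 higher and 6 lower to 4 and 16. Their reads can be shared with near-identical pseudogenes, so single members are uncertain. The 13 protein genes of mitochondrial DNA were higher in 5 and lower in 0, and in 2 and 0 after the correction. Under TMM scaling alone, 18 splicing, 12 polymerase and Mediator, 11 cytosolic ribosome and 3 mitochondrial DNA genes were higher. The cytochrome oxidase subunit gene mt-Co3 stood at 2970 and 2164 CPM against 4026 and 3544 CPM.

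Among chromatin regulators, of 29 Polycomb genes 8 were higher (27.6%) and 2 lower, and 7 and 3 after the correction. Beside Phf1 they included Cbx7 at 23.3 and 20.7 CPM against 82.2 and 34.3 CPM and Cbx6 at 152 and 33.8 CPM against 308 and 264 CPM, both readers of methylated histone H3, and Ring1, a ubiquitin ligase of PRC1, at 25.2 and 21.6 CPM against 59.9 and 37.8 CPM. Bmi1, another PRC1 subunit, was lower, at 53.3 and 42.5 CPM against 35 and 32.3 CPM. Hedgehog genes were higher in 5 of 22 (22.7%) and lower in 1, and in 6 and 2 after the correction. Over all genes with at least 2 CPM, 15.1% were higher and 12.1% lower, and 9.47% and 15.9% after the correction. Gli1, the transcription factor that is also the standard readout of the pathway, stood at 1.22 and 0.906 CPM against 3.63 and 8.70 CPM, with 16.5 CPM in control 1, and Gas1, a co-receptor, at 15.8 and 28.7 CPM against 163 and 52.5 CPM. Ptch1, the receptor and also a target, was lower, at 35 and 28.1 CPM against 18.8 and 22.0 CPM, and overlapped after the correction.

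Immediate early genes respond within minutes to growth signals and to tissue handling. They were higher in 6 of 29 (20.7%) and lower in 0, and in 4 and 0 after the correction. The background of higher genes with at least 2 CPM was 15.1%, and 9.47% after the correction. Ier5l stood at 6.25 and 8.79 CPM against 43.0 and 32.6 CPM (log2 fold change 2.29, SE 0.54, and 1.22 after correction), with 11.4 CPM in control 1. Jund, an AP-1 subunit, stood at 69.8 and 40.5 CPM against 242 and 178 CPM (log2 fold change 1.93, SE 0.51, and 0.57 after correction). Dusp5, a nuclear phosphatase of ERK, stood at 30.7 and 9.22 CPM against 106 and 52.9 CPM, and Nr4a2, an orphan nuclear receptor, at 2.55 and 3.55 CPM against 10.6 and 9.78 CPM. The median of the list was 0.02, so these members were not followed by the rest. Interferon-stimulated genes were higher in 8 of 28 (28.6%) and lower in 0 around a median of −0.01, and in 6 and 1 after the correction. Irf7 stood at 20.0 and 17.6 CPM against 33.2 and 28.1 CPM, and Isg15, a ubiquitin-like protein, at 2.48 and 1.65 CPM against 6.11 and 4.10 CPM.

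**Figure D5:**
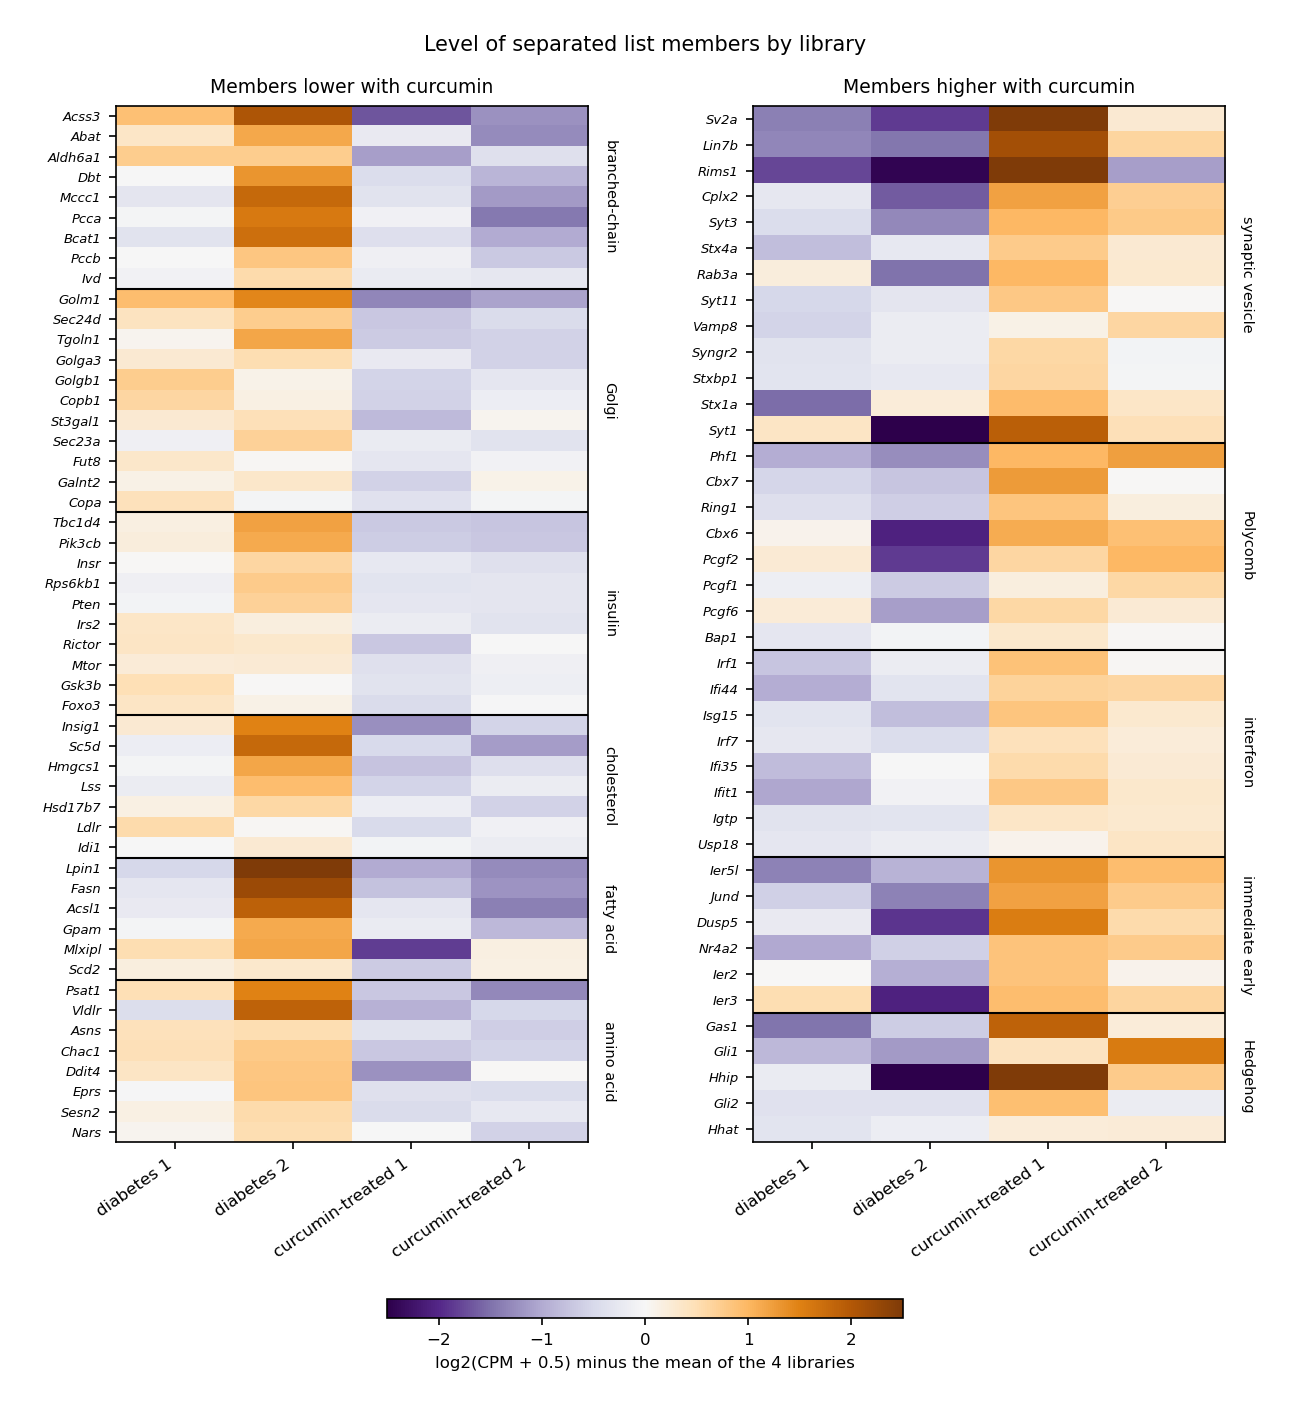
Level of each separated member of 11 lists in the 4 diabetic libraries, as log2(CPM + 0.5) minus the mean of the 4 libraries (orange above, purple below). Fasn, Lpin1 and Acsl1 are high in diabetes 2 and not in diabetes 1, while Golm1, Asns and Aldh6a1 are high in both.

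Synaptic vesicle and exocytosis genes were higher in 13 of 34 (38.2%) and lower in 2, with a median log2 fold change of 0.78, and in 10 and 3 after the correction. Sv2a, a vesicle glycoprotein, stood at 0.629 and 0.315 CPM against 22.3 and 3.11 CPM, and Lin7b, a scaffold of cell junctions, at 1.18 and 1.02 CPM against 17.9 and 6.01 CPM. Cplx2, complexin 2, stood at 7.39 and 2.52 CPM against 21.1 and 14.9 CPM. The value of curcumin-treated 1 was the highest for each. The sum of the nerve and Schwann cell markers was highest, of the 4 diabetic libraries, in the same one. Of 16 tested, 5 were separated higher and 0 lower (4 and 0 after the correction), and 7 of the 17 listed were at 0 in diabetes 1. Uchl1, a neuronal hydrolase, stood at 12.3 and 5.91 CPM against 21.6 and 24.3 CPM. Sox10, the Schwann cell transcription factor, had 0 counts in both diabetic libraries and stood at 13.3 and 0.566 CPM. The sums of the list overlapped, at 197 and 276 CPM against 308 and 201 CPM, and its part in the vesicle genes was not tested.

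Muscle genes differed widely between the treated libraries. Of 14 smooth muscle and pericyte markers 9 were separated higher (64.3%) and 0 lower, with a median log2 fold change of 4.40, and 8 were higher after the correction. Des, the intermediate filament desmin, stood at 36 and 37.9 CPM against 5046 and 257 CPM (log2 fold change 6.06, SE 1.60), and without curcumin-treated 1 its log2 fold change was 2.89. Lmod1, an actin nucleator, stood at 5.78 and 3.19 CPM against 484 and 11.7 CPM, and Smtn, smoothelin, at 12.4 and 24.5 CPM against 1607 and 38.8 CPM. For these genes curcumin-treated 2 lay closer to diabetes than to curcumin-treated 1, and without the latter the log2 fold change was 1.5 for Lmod1 (from 5.71) and 1.13 for Smtn (from 5.34). Skeletal muscle markers were higher in 7 of 14 (50.0%, against 17.9% of all tested genes). After the correction 5 were higher and 1 lower, against 12.7% of all tested genes higher. Only 6 of the 14 had a mean of at least 2 CPM, and 4 were at 0 in diabetes 1. Acta1, skeletal actin, stood at 2.24 and 38.0 CPM against 1069 and 88.7 CPM, and Actn3 at 0.825 and 1.10 CPM against 3.81 and 7.85 CPM. Of 14 tested B and plasma cell markers 3 were separated higher (21.4%) and 0 lower, before and after the correction. Over all tested genes 17.9% were separated higher, and 12.7% after the correction. A mean of at least 2 CPM was reached by 6 of these markers. Igha, the constant region of IgA, stood at 3.34 and 7.37 CPM against 19.4 and 24.9 CPM, with 0.222 CPM in control 1. Ighg1 had 0 counts in both diabetic libraries and stood at 1.73 and 1.93 CPM. Ighg2c, which is not on the list, stood at 0 and 0.236 CPM against 92.6 and 2.5 CPM, high in curcumin-treated 1. The sums of the 15 B and plasma cell markers overlapped, at 277 and 1093 CPM against 345 and 294 CPM.

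Genes reported elsewhere as curcumin targets were separated near the background rate, 6 of 43 higher (14%) and 5 lower (11.6%), but 3 were higher and 8 lower after the correction, against a background of 9.47% and 15.9%. Nfe2l2, the antioxidant regulator NRF2, was lower, at 73.5 and 86.0 CPM against 61.5 and 36 CPM, and Keap1, which degrades it, was higher, at 29.5 and 33.3 CPM against 57.2 and 46.3 CPM. The NRF2 targets Hmox1 (5.93 and 106 CPM against 15.9 and 6.51 CPM) and Nqo1 (28.6 and 3.39 CPM against 17.7 and 12.8 CPM) overlapped, and the antioxidant list was lower in 6 of 32 and higher in 4, and in 6 and 2 after the correction. Of 37 NF-kB and inflammation genes 3 were lower and 2 higher, and 4 and 2 after the correction. Rela, the p65 subunit of NF-kB, was higher, at 57.0 and 58.8 CPM against 86.2 and 88.7 CPM, with a log2 fold change of 0.59 that went to −0.07 after the correction. Tnf overlapped, at 0 and 3.47 CPM against 1.04 and 0.684 CPM, and Il6 did not exceed 0.512 CPM in any of the 4 libraries. Ppargc1a, a coactivator of mitochondrial genes, was lower, at 8.6 and 3.82 CPM against 2.01 and 2.48 CPM.

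Extracellular matrix genes were separated in 3 of 47 (6.38% higher, 0% lower), below the background in both directions, and after the correction 1 was higher and 1 lower. Complement genes, at 1 of 25 each way (4.0%), and circadian clock genes, at 1 of 22 each way (4.55%), were below it too, with 2 and 3 lower and 1 each higher after the correction. That background was 15.1% higher and 12.1% lower, and 9.47% and 15.9% after the correction. Glucocorticoid targets were lower in 4 of 25 (16.0%) and higher in 0, and in 7 and 0 after the correction. Proteasome genes went from 7 of 36 higher (19.4%) and 5 lower (13.9%) to 0 and 7. Wnt genes were higher in 7 of 40 (17.5%) and lower in 3 (7.5%), and in 4 and 5 after the correction. Fzd5, a Wnt receptor, stood at 20.8 and 30.5 CPM against 10.8 and 6.93 CPM. TGF-beta and BMP genes were higher in 5 of 36 (13.9%) and lower in 6 (16.7%), and in 4 and 4 after the correction. Smad7, the feedback inhibitor of that pathway, was higher, at 9.86 and 7.21 CPM against 30.5 and 19 CPM, and Smad2, a signal carrier, was lower, at 37.1 and 49.2 CPM against 23.5 and 21.7 CPM. Per2, a clock gene, was lower, at 8.80 and 31.1 CPM against 8.70 and 5.73 CPM.

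Lars2, Mir6236 and Gm15564 were picked together after their values were seen, as loci to which reads of ribosomal RNA are sometimes assigned in mouse data. Lars2, the mitochondrial leucyl-tRNA synthetase, stood at 1754 and 991 CPM against 284 and 54.8 CPM. Mir6236 stood at 2150 and 822 CPM against 307 and 38.3 CPM, and Gm15564 at 256 and 115 CPM against 19.4 and 8.23 CPM. All were ordered from high to low as diabetes 1, diabetes 2, curcumin-treated 1, curcumin-treated 2. The mitochondrial ribosomal RNA genes mt-Rnr1 (288 and 289 CPM against 387 and 32.6 CPM) and mt-Rnr2 (453 and 388 CPM against 581 and 188 CPM) were also lowest in curcumin-treated 2 but overlapped. The libraries were made from poly-A RNA, and whether carry-over of ribosomal RNA differed between them was not tested.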

How the data were processed

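RNA labelled as visceral fat was sequenced in 5 poly-A, strand-marked, paired-end libraries, per the labels' protocols. Whole-number counts per gene, not normalised, were deposited for 78334 Ensembl genes. FastQC, featureCounts and the build GRCm39 are named in the submitters' processing notes. The sources used here name neither the aligner nor the strand setting, so reads of a gene and its antisense partner cannot be told apart. Symbols (51486 genes, 65.7%), GC content and transcript length were matched by gene ID from GENCODE M21 on GRCm38, and promoter windows came from RefSeq (GRCm38.p6). Coordinates of GRCm39 were not used.

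CPM was scaled to the library total. The test was edgeR 4.0.16 (filterByExpr, TMM, robust quasi-likelihood) in R 4.3.3 on all 5 libraries, curcumin minus diabetes, two-sided, with Benjamini-Hochberg adjustment, a biological coefficient of variation of 1.07 and 2 residual degrees of freedom. Counting limits (3 counts for a count of 0) cover counting error only, since reads carry no molecular identifiers. Deviations from the group means correlated at −0.410 between libraries of the same number and at 0.410 with the numbers crossed. With 2 libraries per group the second value is the first with its sign changed. These values therefore cannot tell whether the replicate numbers mark pairs. Diabetes 1 correlated most with curcumin-treated 2 (Pearson r 0.861 on log2 CPM) and diabetes 2 with curcumin-treated 1 (0.864). Within the groups the values were lower, 0.714 for diabetes and 0.824 for curcumin.

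The genes and the 53 lists were chosen with earlier results of these data known, and 4 more lists after values were seen. Named genes had a mean of at least 2 CPM, were separated, and were the 12 with the smallest p or the 8 with the largest gap per direction, or up to 4 per list and direction by p. Genes of the 4 later lists, overlapping members, and Ighg1, Ighg2c, Adipoq and the vesicle, muscle and nerve members below that rank were named after their values were seen. Alternatives were other scalings, filters, DESeq2 1.42.0, limma-voom 3.58.1, 4 libraries, a replicate block, corrections for GC content and length, and leaving out each library. The corrections for length were added after the data had been seen. GC content was known for 82.7% of tested genes.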

Additional observations from a re-analysis of the deposited data

How the results depend on the processing

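No gene was called by edgeR under any scaling, filter, correction or left-out library (0 to 0), with the replicate block (0, and 231 at an unadjusted p under 0.05) or with the numbers crossed (0, and 504). DESeq2 called 97. The count of genes separated higher was 5334, and it was 8831 with no filter on low counts, 2747 with at least 1 CPM in 2 libraries, 3549 when 4 libraries set the filter, 3060 with the GC correction, 3339 with the length correction, 3124 with both, and 1826 where the 95% Poisson intervals of the counts lay apart. The count separated lower was 1129 under that last rule. A gap of 4-fold left 18 higher and 5 lower. Leaving out a library gives no separation count, because a group of 1 cannot be compared in this way. The fitted direction of Akt1 (−0.22 and −0.24 on the log2 scale with the GC correction and with both corrections), Gsk3a (−0.05 and −0.07), Mvd (−0.11 and −0.19), Pik3r2 (−0.28 and −0.24) and Rela (−0.07 and −0.07) reversed under correction, and the value of Mvd ran from −0.02 without curcumin-treated 2 to 0.85 without curcumin-treated 1. Without diabetes 2 the log2 fold change shrank from −3.48 to −1.40 for Spp1, −1.53 to −0.57 for Mme, −1.55 to −0.57 for Dbt, −1.71 to −0.57 for Ctsl, −1.37 to −0.57 for Tgoln1, −1.43 to −0.60 for Rb1 and −1.55 to −0.21 for Per2. Without curcumin-treated 1 it shrank from 1.98 to 0.49 for Bag3, 2.64 to 1.14 for Tead3, 4.68 to 2.83 for Sv2a and 2.5 to 0.82 for Heyl. The cause was not tested. Depth limits genes near a count of 0, among them Adra2a, Foxo6, Nrg1 and Sox10. Diabetes 1 and 2 had similar totals, but 1292 and 10411 genes with 1 to 5 counts, and curcumin-treated 1 and 2 had 19751 and 8960. The limits given for a count of 0 do not allow for this difference. Of the 5334 genes separated higher, 2241 were at 0 in diabetes 1 and 1247 in diabetes 2. Why low counts were scarce in diabetes 1 was not tested.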
